A study of Mus musculus with 18 samples.

Results

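The genes described here encode the SR proteins, the hnRNP proteins and the factors that first read the 3′ splice site, and they were measured by RNA sequencing of injured mouse kidneys. Members were the protein-coding genes whose symbol begins with Srsf and a number, Hnrnp, Sf3a or Sf3b and a number, or U2af, together with *Sf1*, *Tra2a*, *Tra2b*, *Srrm1* and *Srrm2*. This rule used names and no measured value. It gave 48 of the 45706 genes in the count tables, namely 15 SR and SR-related genes, 20 hnRNP genes, 9 subunits of the SF3A and SF3B complexes and 4 genes of 3′ splice site recognition.

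Every kidney came from a young adult male C57BL/6 mouse (the floxed lines were C57BL/6J) and was removed 12 h after bilateral ischemia that had lasted 22.5 min. *Myc* KO mice (n = 5) carried floxed *Myc* alleles with the transgenes Pax8rtTA and TetOcre, and *Myc* control mice (n = 5) carried the floxed alleles and Pax8rtTA without the recombinase. *Cxcl12* KO mice (n = 5) and *Cxcl12* control mice (n = 3) had the same design with floxed *Cxcl12* alleles. All mice, controls included, had received doxycycline, which switches on the recombinase in Pax8-expressing tubule cells. The RNA was taken from whole kidney, in which all other cells keep the floxed gene intact. No uninjured kidney was analysed here, so the effect of the injury itself cannot be read from these groups.

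A spliceosome removes each intron in steps. SF1 and the U2AF proteins first bind the branch point, the pyrimidine tract and the end of the intron, and the U2 snRNP then takes over the branch point through its SF3A and SF3B subunits. SR proteins bind exons and mostly favour their inclusion, whereas many hnRNP proteins coat the new transcript and often act against them. Gene counts measure how much RNA of each of these genes was present, relative to the whole library. They do not show which isoforms were spliced.

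MYC binds DNA with its partner MAX at the E-box CACGTG, and the E-boxes of the members are shown because one of the deleted genes encodes this factor. Promoter windows from RefSeq on GRCm38.p6, from 250 bases before to 50 bases after each annotated start, were found for 43 of the 48 members, some with several starts (58 windows). The E-box, which reads the same on both strands, was present in 5 of 58 windows (8.62%) against 7.15% of 32851 windows of all genes. The capitals mark the E-box.
Hnrnpa3, chr2:75659231-75659256, plus strand: gatagcacatCACGTGgtgactggcc
Hnrnpd, chr5:99978955-99978980, minus strand: gctccggagcCACGTGaccgggacgc
Hnrnpf, chr6:117907715-117907740, plus strand: agcgggcgctCACGTGgcccgaggcg
Hnrnpm, chr17:33685430-33685455, minus strand: cgttcggggtCACGTGagcgcgcagg
Hnrnph2, chrX:134601184-134601209, plus strand: gagagttgctCACGTGaccgagatct

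The E-box lies before the start in *Hnrnpa3*, *Hnrnpd* and *Hnrnpf* and after it in *Hnrnpm* and *Hnrnph2*. None of these 5 members passed the test in *Myc* KO kidneys, none had an unadjusted p under 0.05, and DESeq2 and limma-voom called none of them. Their log2 fold changes were 0.26 for *Hnrnpa3*, 0.02 for *Hnrnpd*, -0.11 for *Hnrnpf*, 0.07 for *Hnrnpm* and 0.11 for *Hnrnph2*, with adjusted p-values from 0.339 to 0.936 by edgeR's quasi-likelihood test. *Hnrnpab*, the member that did pass, had no CACGTG in its window. Its 250 bases before the start are shown for that reason, with each CCAAT box, read on either strand, in capitals.
Hnrnpab, chr11:51606882-51607131, minus strand: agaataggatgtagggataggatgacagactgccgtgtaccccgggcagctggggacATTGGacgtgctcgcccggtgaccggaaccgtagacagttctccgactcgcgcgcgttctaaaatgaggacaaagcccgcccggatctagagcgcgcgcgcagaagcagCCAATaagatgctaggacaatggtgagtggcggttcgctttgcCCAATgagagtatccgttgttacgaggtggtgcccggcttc

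CCAAT, searched on both strands, was present in 29 of the 58 member windows against 37.4% of all windows. A match describes these letters and is no evidence that a factor bound there.

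The libraries held 12918220 to 29749500 reads on genes per kidney. The share of unmapped reads was under 5% in 6 kidneys, namely 2 *Myc* control, 2 *Myc* KO and 2 *Cxcl12* KO kidneys, and the labels name no batch that would match this split. The study's methods report a correction for batch effects with ComBat but do not name the batches. No batch term entered the main tests here. Reads outside annotated genes made up 5.64% ± 0.60 of the total in *Myc* control kidneys and 6.58% ± 0.43 in *Myc* KO kidneys (SD, n = 5 each, two-sided exact permutation p = 0.032). Of the target genes, *Myc* had 31.0 ± 3.9 CPM (the count scaled to library size) in *Myc* KO and 94.9 ± 14.5 CPM in *Myc* control kidneys (SD, edgeR adjusted p = 8.8e-05). *Cxcl12* had 32.3 ± 6.1 CPM in *Cxcl12* KO and 53.5 ± 7.9 CPM in *Cxcl12* control kidneys, without overlap (SD, edgeR adjusted p = 0.094). Markers of tubule cells, podocytes and endothelium were present in every kidney, and those of T and B cells were too scarce to test. Of 31 tested cell type markers, 0 passed edgeR's test in either cohort. At an unadjusted p under 0.05 were 6 in the *Myc* cohort, against 21.9% of all genes, and 10 in the *Cxcl12* cohort, against 13%. The summed level of 5 neutrophil markers, none of them at 0, ranged from 42.4 to 226 CPM in *Myc* control, 137 to 260 CPM in *Myc* KO, 18.3 to 25.7 CPM in *Cxcl12* control and 29.2 to 131 CPM in *Cxcl12* KO kidneys. In the *Cxcl12* cohort all 5 were higher in the KO (median log2 fold change 1.74), each at an unadjusted p under 0.05. In the *Myc* cohort all 5 neutrophil markers had higher values in the KO (median log2 fold change 0.65), none at an unadjusted p under 0.05. All 3 endothelial markers were higher too (308 to 543 CPM in control and 460 to 650 CPM in KO kidneys in sum, median 0.48). So were all 3 podocyte markers (314 to 542 and 481 to 597 CPM, median 0.34). Of the endothelial and the podocyte list, 2 markers each had an unadjusted p under 0.05. Lower at such a p were 1 of 3 injured-tubule markers (log2 fold changes of the list -1.32 to 0.39) and 1 of 5 macrophage markers (-0.32 to 0.14). In bulk kidney, fewer cells of a type and less RNA per cell cannot be told apart, and the part of these shifts in the results that follow was not tested.

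Levels were compared between genes as CPM per kilobase of merged exon. The most abundant members were 3 hnRNP genes. *Hnrnpab*, which encodes an A/B-type RNA-binding protein, averaged 123 CPM per kilobase over the 4 groups. *Hnrnpa2b1*, known for RNA transport as well as splicing, had 89.6, and *Hnrnpa0*, a binder of AU-rich mRNA ends, had 86.4 CPM per kilobase. The SR genes *Srsf2* (59.7 CPM per kilobase) and *Srsf5* (59.5 CPM per kilobase) came next. Neighbours in this order overlapped over the 18 kidneys except at 2 steps, below *Hnrnpa0* and below *Hnrnpr*. The count used leaves out reads in exons shared with a gene on the other strand. Summing the columns for each strand gave 1.45 times as many reads for *Hnrnpab*, 1.43 times for *Srsf2* and 3.41 times for *Srsf4*. The place of such genes in the order, and the step below *Hnrnpa0*, are therefore uncertain.

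At the low end stood *Hnrnpa1* with 2.83, *Hnrnpr* with 1.98 and *Srsf12* with 0.104 CPM per kilobase. The value of *Hnrnpr* depends on its 22199 bases of merged exon, against 1896 coding bases. Before division by length its group means were 42.4 to 45.9 CPM. *Srsf12* had only 1 to 16 reads per kidney, and the filter on low counts removed it from every test. *Hnrnpa1*, the founding A-type hnRNP and a classical repressor of exons, is uncertain here, because all of its coding bases also occur, at 95% identity or more over at least 100 bases, in transcripts of 12 other genes, 8 of them pseudogenes. Reads that map to several places were left out of the counts. They made up 16.6% to 18.6% of the reads. Among the *Cxcl12* control kidneys (n = 3) such reads took a share of 16.7% ± 0.080 (SD), and among the KO kidneys (n = 5) 17.9% ± 0.74, without overlap (two-sided exact permutation p = 0.0357). Among the 5 *Myc* control kidneys it was 17.7% ± 0.42 and among the 5 KO kidneys 17.2% ± 0.57 (two-sided exact permutation p = 0.119). Such copies covered more than 50% of the coding bases in 16 of the 48 members, *Hnrnpa3*, *Srsf3*, *Srsf5*, *U2af1*, *U2af2*, *U2af1l4*, *Hnrnph2* and *Hnrnpr* among them, and their levels are uncertain for the same reason. No copy was found for *Hnrnpab*, *Sf3b6*, *Sf3b5*, *Sf3b1* or *Hnrnph1*.

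The members varied little between kidneys of one group. Their median coefficient of variation within groups was 8.08%, against 14.0% for all 15903 genes tested over both cohorts. *Sf3a3*, a subunit of SF3A, varied least with 3.63%, and *Hnrnpa1* varied most with 18.2%. The median was 7.29% for the SF3A and SF3B genes, 8.41% for the SR genes, 8.87% for the hnRNP genes and 9.39% for the genes of 3′ splice site recognition. Genes with more reads vary less from counting alone, and the members were not matched on level for this comparison.

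The first question was whether loss of *Myc* in tubule cells changed the splicing factor genes of the injured kidney. The 5 *Myc* KO and 5 *Myc* control kidneys entered edgeR's quasi-likelihood test with Benjamini-Hochberg adjustment over all genes, and a gene passed with an adjusted p under 0.05. Of 47 members tested, 1 fell (*Hnrnpab*) and 0 rose. Over all genes tested, 1.65% passed, 1.29% lower and 0.355% higher in the KO. Before adjustment, 9 of 47 members had a p under 0.05, 5 of them lower and 4 higher, against 21.9% of all genes. The median log2 fold change of the members was 0.01, and that of all genes was -0.00083. Members were split evenly by direction, with 23 lower and 24 higher. Most were measured closely, since the 95% confidence interval lay within 0.5 log2 units of no change for 44 of 47. The widest bounds were -0.57 for *Sf3b5* and 0.60 for *Hnrnpa3*.

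*Hnrnpab* (ENSMUSG00000020358, GRCm38 chr11:51600100-51606847, minus strand) was the member that fell. The *Myc* control kidneys had 344, 347, 347, 352 and 378 CPM, and the *Myc* KO kidneys had 302, 290, 287, 283 and 267 CPM. Every KO kidney lay below every control kidney, as did those of *Sf3b6* and *Sf3a3*, so that 3 of 47 members stood apart in this direction and 0 in the other. Among all genes, 3.92% stood apart with the KO lower and 2.05% with the KO higher. *Hnrnpab* fell by 19.1%, a log2 fold change of -0.31 (edgeR adjusted p = 0.0434, SE, the standard error, 0.07). Within the kidneys with under 5% unmapped reads the difference was -0.32 (2 against 2), and within the others it was -0.30 (3 against 3). *Hnrnpab* had been picked by the test on these same kidneys, so neither the lack of overlap nor this split adds evidence of its own.

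The size of this change was steadier than its call. Leaving out 1 kidney gave log2 fold changes of *Hnrnpab* from -0.33 to -0.28, but the edgeR adjusted p then ranged from 0.037 to 0.128 and stayed under 0.05 only without *Myc* control 1 or *Myc* control 3, not without any KO kidney or *Myc* control 2, 4 or 5. *Hnrnpab* also shares 4390 bases of its span with *Phykpl* on the other strand, and reads in shared exons were left out of the count that ignores the strand. Summing the columns for each strand gave 1.45 times as many reads of *Hnrnpab* and a log2 fold change of -0.29 (edgeR adjusted p = 0.052). *Phykpl* had -0.09 (edgeR adjusted p = 0.642) in the unstranded count and -0.22 (edgeR adjusted p = 0.0967) in the sum. A read in a shared exon enters this sum for both genes, so the sum does not separate them. In the unstranded count of *Myc* control kidneys *Phykpl* had 17.8 CPM and *Hnrnpab* 354 CPM.

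**Figure D1:**
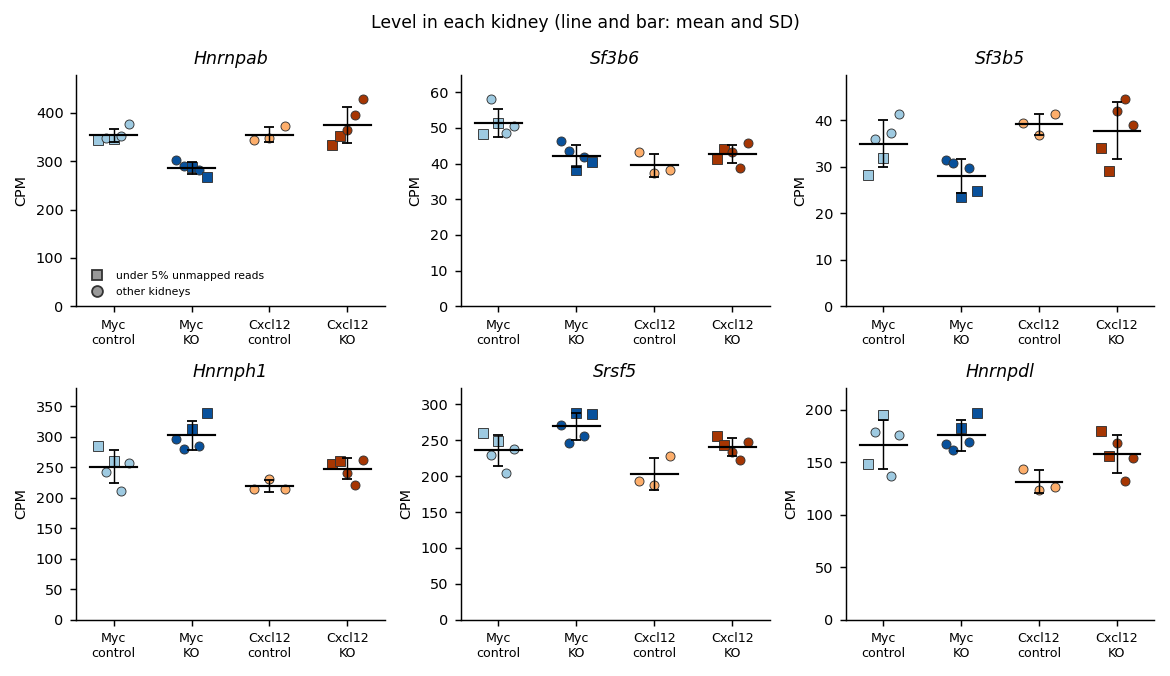
CPM of 6 members in each kidney, with a line and bar for the mean and SD of each group and squares for kidneys with under 5% unmapped reads. The Myc KO kidneys of Hnrnpab (267 to 302 CPM) all lie below the Myc controls (344 to 378 CPM), while the groups of Hnrnph1, Sf3b5, Srsf5 and Hnrnpdl overlap in the Myc cohort.

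The SF3A and SF3B genes, whose products hold the U2 snRNP on the branch point, were lower in *Myc* KO kidneys in 8 of 9 cases, with a median log2 fold change of -0.07. None passed edgeR's test. Before adjustment 4 of 9 had a p under 0.05, 3 lower and 1 higher, against 21.9% of all genes, of which 49.9% had a higher value.

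*Sf3b6* encodes the small subunit that contacts the branch point adenosine. Control kidneys of the *Myc* cohort had 48.4, 58.0, 51.4, 48.7 and 50.5 CPM and KO kidneys had 46.3, 43.6, 38.2, 41.7 and 40.4 CPM. All KO values lay below all control values. The log2 fold change of *Sf3b6* was -0.29 (edgeR adjusted p = 0.08, SE 0.08), and DESeq2 gave an adjusted p of 0.0143. *Sf3b5*, another small subunit of the same complex, had 28.3, 36.0, 31.8, 37.4 and 41.3 CPM in control and 31.4, 30.8, 23.5, 29.7 and 24.8 CPM in KO kidneys. The groups overlapped through *Myc* control 1. Its log2 fold change was -0.32 (edgeR adjusted p = 0.154, SE 0.12). With the split by unmapped reads as a covariate the adjusted p was 0.0208.

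*Sf3b1*, the large scaffold of the complex and the one SF3 gene with a higher value, went the other way. It had 322, 319, 404, 260 and 301 CPM in *Myc* control and 358, 355, 402, 391 and 426 CPM in *Myc* KO kidneys. Only *Myc* control 3 lay within the KO range. The log2 fold change of *Sf3b1* was 0.27 (edgeR adjusted p = 0.191, SE 0.11), and without *Myc* control 4, the lowest kidney, it was 0.20. The remaining SF3 genes ranged from -0.19 for *Sf3a2* to -0.03 for *Sf3b4*.

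Of the 20 hnRNP genes, 14 had a higher and 6 a lower value in *Myc* KO kidneys, with a median log2 fold change of 0.07, and *Hnrnpab* alone passed. The highest was *Hnrnph1*, a binder of G-rich runs near exons. It had 285, 242, 260, 211 and 257 CPM in control and 295, 280, 312, 284 and 339 CPM in KO kidneys. Only *Myc* control 1 reached into the KO range. Its log2 fold change was 0.27 (edgeR adjusted p = 0.132, SE 0.09, DESeq2 adjusted p = 0.0499). The abundant *Hnrnpa2b1* had 571 ± 41.2 CPM in control and 613 ± 64.9 CPM in KO kidneys (SD, n = 5 each), and *Hnrnpa0* had a log2 fold change of 0.06 with a 95% interval from -0.18 to 0.30.

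Among the SR and SR-related genes, 8 of 14 tested were higher and 6 lower, with a median log2 fold change of 0.10 and none past the threshold by edgeR, DESeq2 or limma-voom, while 3 had an unadjusted p under 0.05, a share close to the 21.9% of all genes. *Srrm2*, a very large scaffold protein of nuclear speckles, had 492, 427, 484, 354 and 416 CPM in *Myc* control and 484, 476, 539, 518 and 519 CPM in *Myc* KO kidneys. The groups overlapped, and the log2 fold change was 0.23 (edgeR adjusted p = 0.205, SE 0.10). *Srsf6*, an SR protein that favours exon inclusion, had the lowest value of the class. It had 268, 245, 247, 219 and 233 CPM in control and 216, 208, 221, 201 and 228 CPM in KO kidneys. Only *Myc* control 4 lay within the KO range, and the log2 fold change of *Srsf6* was -0.17 (edgeR adjusted p = 0.21, SE 0.08). *Srsf5* had 236 ± 21 CPM in control and 269 ± 18 CPM in KO kidneys, a log2 fold change of 0.19 (edgeR adjusted p = 0.211), and *Srsf2* had -0.01 with an interval from -0.17 to 0.16.

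The 4 genes of 3′ splice site recognition lay between -0.13 and 0.11. *U2af2*, which encodes the reader of the pyrimidine tract, had the lowest value of -0.13 (95% interval -0.32 to 0.06), and *Sf1*, which encodes the first binder of the branch point, had the highest of 0.11 (-0.09 to 0.31). *Sf1* had 152 CPM in *Myc* control 4 and 184 to 217 CPM in the other *Myc* controls, against 193 to 220 CPM in the KO kidneys.

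*Myc* control 4 stood low in many members. It had the lowest value of all 10 kidneys of its cohort in 23 of the 47 members and the highest in 1, and its median deviation over the members was -0.16 log2 units, against 0.0011 to 0.11 in the other 4 control kidneys. Without this kidney, the log2 fold changes were 0.21 for *Hnrnph1*, 0.16 for *Srrm2*, 0.14 for *Srsf5* and 0.04 for *Sf1*, each nearer to 0, while those of *Hnrnpab* (-0.31) and *Sf3b6* (-0.31) were as large as with it. Within the kidneys with under 5% unmapped reads and within the others, the differences were -0.34 and -0.25 for *Sf3b6*, -0.31 and -0.32 for *Sf3b5*, 0.26 and 0.28 for *Hnrnph1*, 0.20 and 0.33 for *Sf3b1* and 0.12 and 0.31 for *Srrm2*.

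**Figure D2:**
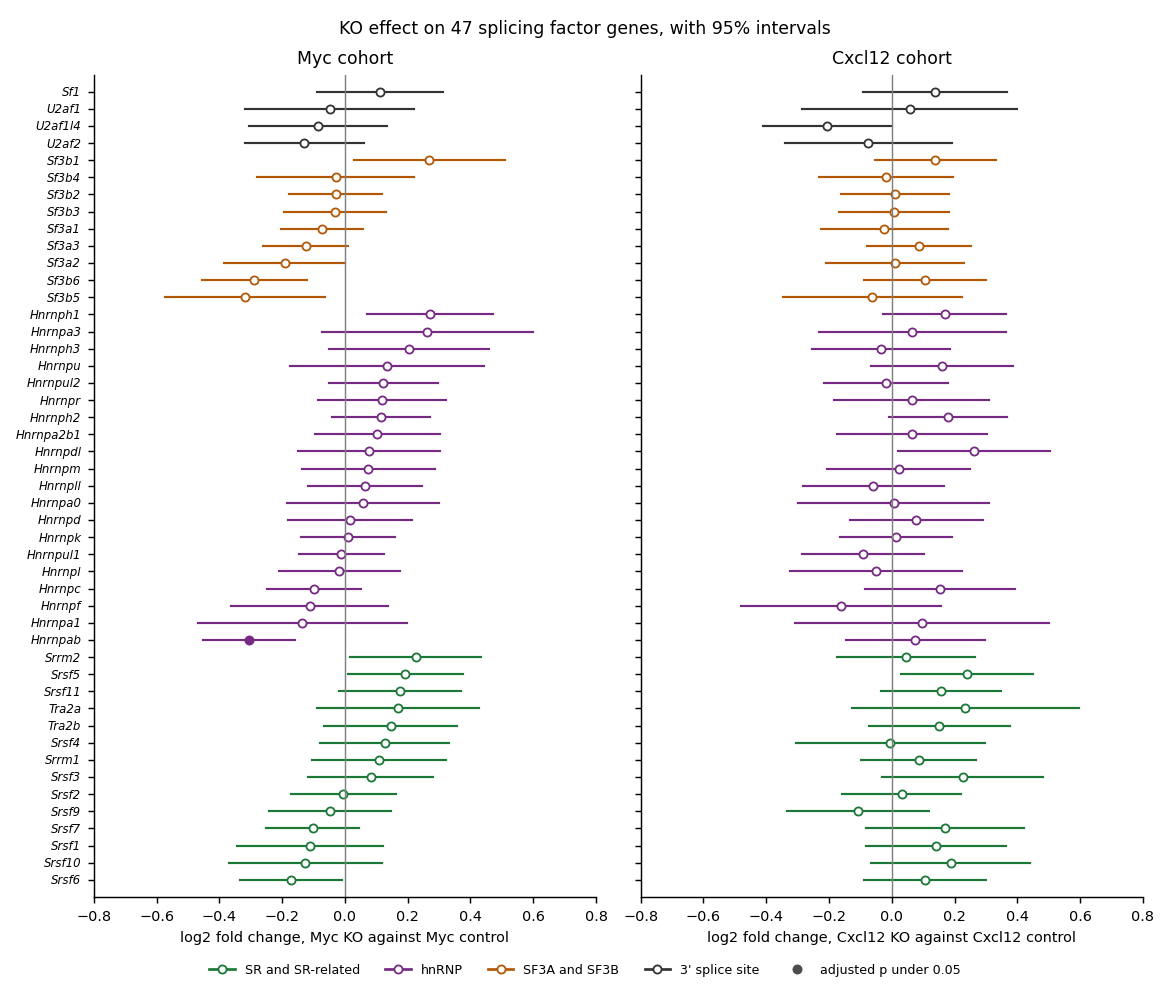
Log2 fold change with its 95% interval for the 47 tested members, KO against control in the Myc cohort (left) and the Cxcl12 cohort (right), coloured by class, with a filled point for an edgeR adjusted p under 0.05. Hnrnpab in the Myc cohort (-0.31) is the one filled point, and nearly all intervals of both cohorts lie within 0.5 log2 units of no change.

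Members with short exons tended to have lower values in *Myc* KO kidneys and members with long exons higher ones. Across the 47 members, the log2 fold change and the logarithm of the merged exon length were correlated with Pearson's r = 0.50 and Spearman's rho = 0.51. Across all 14892 genes with a length, the values were 0.19 and 0.25. In the *Cxcl12* cohort the same coefficients were r = 0.30 and rho = 0.23 for the members, and all genes had 0.08 and 0.11. These are correlations across genes that share the same libraries, and genes are not independent replicates, so they are given without a test. *Hnrnpab* had 2782, *Sf3b6* 2854 and *Sf3b5* 3841 bases of merged exon, against 11370 bases in *Sf3b1* and 12842 bases in *Srrm2*. The highest value, that of *Hnrnph1*, belonged to a gene of middle length (5842 bases), as did that of *Hnrnpa3* (5396 bases). The higher share of reads outside genes in *Myc* KO kidneys stood beside this pattern, and its part in it was not tested.

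**Figure D3:**
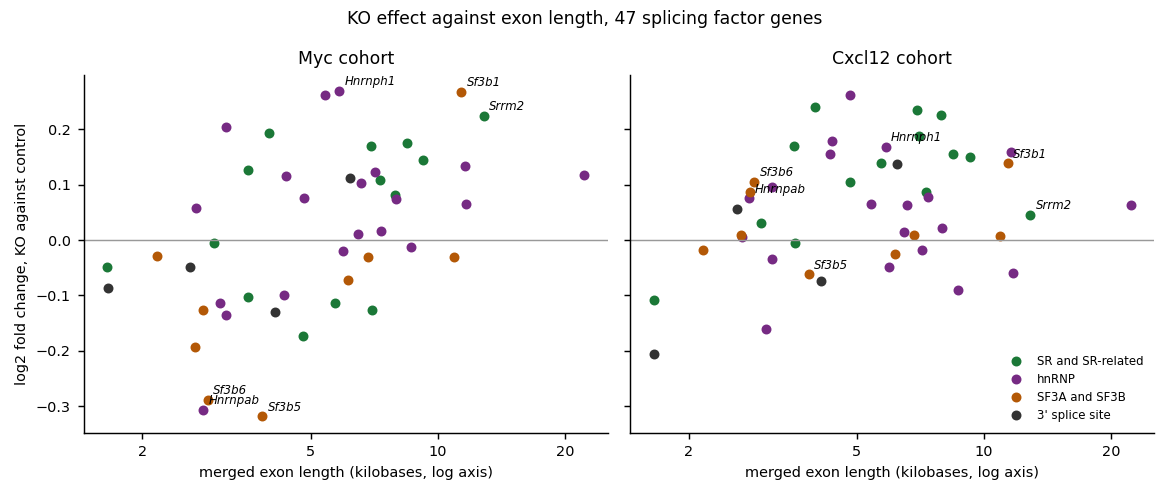
Log2 fold change (KO against control) against merged exon length on a log axis for 47 members, Myc cohort on the left and Cxcl12 cohort on the right, 1 point per gene coloured by class. In the Myc cohort the lowest points, Sf3b5, Hnrnpab and Sf3b6, have exons of under 4 kilobases while of the 4 highest points Hnrnph1 and Hnrnpa3 have 5 to 6 kilobases and Sf3b1 and Srrm2 over 11 kilobases (Spearman rho 0.51 across genes, against 0.23 in the Cxcl12 cohort).

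The second question was the same for loss of *Cxcl12*, which encodes a secreted chemokine. None of the 47 members passed edgeR's test in *Cxcl12* KO kidneys (smallest adjusted p = 0.332), nor did any by DESeq2 or limma-voom. Over all 15154 genes tested, 0% passed by edgeR. An unadjusted p under 0.05 was found for 3 members (1 lower and 2 higher), against 13% of all genes. The 95% intervals of 44 of 47 members lay within 0.5 log2 units of no change, and the widest bounds were -0.48 and 0.60. Values leaned upwards, with 34 members higher and 13 lower (72.3% higher, against 50.2% of all genes) and a median log2 fold change of 0.06, which was 0.04 without *Cxcl12* KO 2. Of the SR genes, 12 of 14 were higher with a median of 0.15. Several marker sums moved in the same kidneys. The 3 injured-tubule markers all had higher values (median log2 fold change 0.65, 2 at an unadjusted p under 0.05). They summed to 1571 to 2368 CPM in *Cxcl12* control and 2536 to 3051 CPM in *Cxcl12* KO kidneys. The 5 proximal tubule markers, all with lower values (median log2 fold change -0.28, 2 at an unadjusted p under 0.05), summed to 4170 to 4868 CPM and 3561 to 3988 CPM, and the 3 endothelial markers, all with higher values, to 326 to 336 CPM and 333 to 460 CPM. The part of these markers, of the neutrophil markers and of the share of multimapping reads in the lean was not tested.

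*Srsf5*, one of the SR genes, had the smallest p of the members in this cohort. It had 193, 187 and 228 CPM in *Cxcl12* control and 255, 244, 234, 222 and 248 CPM in *Cxcl12* KO kidneys. The groups overlapped only between *Cxcl12* control 3 and *Cxcl12* KO 4. The log2 fold change was 0.24 (edgeR adjusted p = 0.332, SE 0.10). *Hnrnpdl*, the gene for an hnRNP related to hnRNP D, had 144, 124 and 126 CPM in control and 180, 156, 168, 132 and 154 CPM in KO kidneys, a log2 fold change of 0.26 (edgeR adjusted p = 0.354, SE 0.11). Its KO kidney 4 lay below control 1. No control kidney had under 5% unmapped reads, and among the others the differences were 0.21 for *Srsf5* and 0.20 for *Hnrnpdl*.

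*U2af1l4*, a paralogue of the U2AF subunit that reads the AG at the end of the intron, was lower in all KO kidneys than in any control. Control kidneys had 18.6, 18.3 and 19.4 CPM and KO kidneys had 15.9, 15.1, 17.7, 16.4 and 16.7 CPM. Its log2 fold change was -0.21 (edgeR adjusted p = 0.383, SE 0.09). *Sf3b1* stood apart in the other direction, with 272 to 283 CPM in control and 288 to 334 CPM in KO kidneys and a log2 fold change of 0.14 (edgeR adjusted p = 0.526). So 1 member stood apart lower and 1 higher, against 4.72% and 4.96% of all genes, in a comparison of 5 kidneys with 3. *Hnrnph2* had a log2 fold change of 0.18 (95% interval -0.01 to 0.37) and *Srsf3*, the smallest SR protein, had 0.23 (-0.03 to 0.48).

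The difference between the 2 KO effects was tested directly over all 18 kidneys, and the cohorts had no kidney in common. None of the 47 members passed edgeR's test of the difference, against 0.0692% of all 15903 genes. At an unadjusted p under 0.05 were 6 members, all with the lower effect in *Myc* KO kidneys. Of all genes 11.4% had such a p, and 1077 of the 15903 had it in this direction. DESeq2 called 2 members, *Hnrnpab* and *Sf3b6*, and limma-voom 0. For *Hnrnpab*, the difference was -0.39 (95% interval -0.62 to -0.16, edgeR adjusted p = 0.133). The *Cxcl12* kidneys had 344, 347 and 373 CPM of *Hnrnpab* in controls and 334, 351, 365, 396 and 428 CPM in KO, so that all of them lay above the highest *Myc* KO kidney. For *Sf3b6*, the difference was -0.40 (95% interval -0.63 to -0.17, edgeR adjusted p = 0.13). Here the *Cxcl12* controls were at 43.2, 37.2 and 38.3 CPM and the *Cxcl12* KO kidneys at 38.9 to 45.8 CPM, a range that overlapped with the *Myc* KO kidneys (38.2 to 46.3 CPM) and lay below all *Myc* controls (48.4 CPM and above). Levels between cohorts were not tested, because cohort and any batch cannot be told apart.

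The splicing genes around the members were read from 5 lists. Of the 6 genes that passed in *Myc* KO kidneys, 5 belong to the list of genes that build the snRNPs, the RNA and protein particles on which the members act. Of 11 tested snRNP assembly genes, 5 fell and 0 rose, 11 of 11 had a lower value, and the median log2 fold change was -0.34. Over all genes 1.29% fell, and 49.9% had a higher value. In the *Cxcl12* cohort 0 of the 11 passed by edgeR, DESeq2 or limma-voom, 0 had an unadjusted p under 0.05, and the median was 0.07. The test of the difference between the cohorts passed for 0 of the 11 by edgeR (smallest adjusted p = 0.0642), with 8 at an unadjusted p under 0.05, against 11.4% of all genes.

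PRMT5, WDR77 and CLNS1A form the complex that methylates arginines of the Sm proteins. *Prmt5* had 76.4, 74.9, 63.5, 82.0 and 72.1 CPM in *Myc* control and 55.8, 52.5, 54.8, 50.2 and 46.6 CPM in *Myc* KO kidneys, with a log2 fold change of -0.50 (edgeR adjusted p = 0.0139, SE 0.08). *Clns1a*, whose product carries the Sm proteins, had 39.5, 47.8, 41.3, 43.1 and 42.2 CPM in control and 30.9, 31.4, 29.6, 31.3 and 30.1 CPM in KO kidneys. The groups of both genes lay apart, and *Clns1a* fell by 0.48 on the log2 scale (edgeR adjusted p = 0.0114, SE 0.07). *Wdr77* fell from 33.2 ± 3.2 to 23.7 ± 2.0 CPM (SD, n = 5 each), a log2 fold change of -0.48 (edgeR adjusted p = 0.0251, SE 0.09).

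The other two that fell belong to the SMN complex, which places the Sm ring on snRNA. *Gemin5*, the subunit that recognises the snRNA, fell from 39.3 ± 1.4 to 30.9 ± 1.3 CPM (log2 fold change -0.34, edgeR adjusted p = 0.0251). *Gemin6* was scarce, with 4.93, 5.05, 3.66, 6.28 and 4.09 CPM in control and 3.40, 2.65, 2.19, 2.67 and 2.70 CPM in KO kidneys, and its log2 fold change was -0.82 (edgeR adjusted p = 0.0408, SE 0.18). In all 5 genes every KO kidney lay below every control kidney. So 5 of the 11 tested assembly genes stood apart in this direction, against 3.92% of all genes. The differences within both mapping groups had the same sign (-0.46 and -0.53 for *Prmt5*). The 5 genes had been picked by the test on these same kidneys, so neither point adds evidence of its own. Without the kidneys with under 5% unmapped reads, 3 against 3, none of the 5 passed, and over all genes 8 passed. The count of 5 fell to 1 without *Myc* KO 2, *Myc* KO 3, *Myc* KO 4 or *Myc* control 2, and to 3 without *Myc* KO 5.

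**Figure D4:**
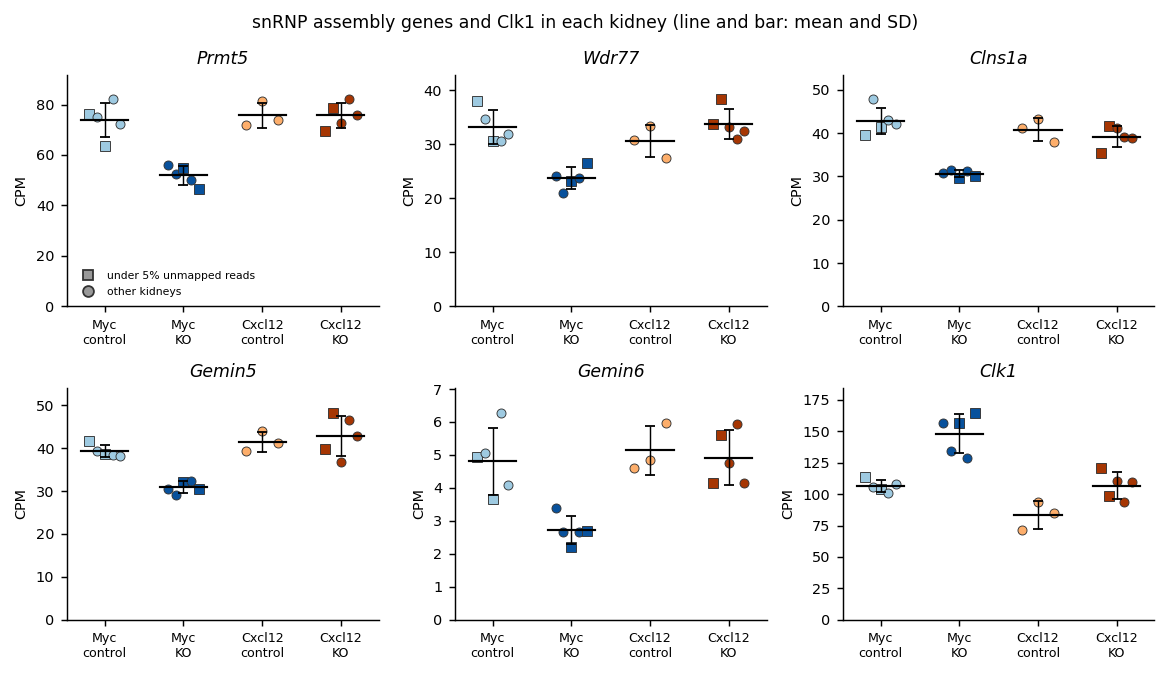
CPM of 5 snRNP assembly genes and of the SR protein kinase gene Clk1 in each kidney, with a line and bar for the mean and SD of each group and squares for kidneys with under 5% unmapped reads. The 5 Myc KO kidneys lie below all Myc controls in the assembly genes (Prmt5 46.6 to 55.8 against 63.5 to 82.0 CPM) and above them in Clk1 (129 to 165 against 101 to 114 CPM), and the Cxcl12 groups overlap in the assembly genes.

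Kinases that phosphorylate SR proteins and the importer of SR proteins made up a list of 10 genes. *Clk1*, a kinase of SR proteins in the nucleus, rose in *Myc* KO kidneys and was the 1 gene of the list that passed, while 8 of the 10 had a higher value (median log2 fold change 0.20). Before adjustment 5 of the 10 had a p under 0.05, all of them higher. Of all genes 21.9% had such a p, and 1589 of the 14936 tested had it with a higher value. *Clk1* had 114, 105, 104, 101 and 108 CPM in control and 156, 134, 156, 129 and 165 CPM in KO kidneys. All KO kidneys lay above all controls, with a log2 fold change of 0.48 (edgeR adjusted p = 0.0198, SE 0.08). In the *Cxcl12* cohort it had 71.4, 93.3 and 84.8 CPM in control and 121, 98.9, 110, 93.3 and 109 CPM in KO kidneys, a log2 fold change of 0.35 (edgeR adjusted p = 0.239). The 2 effects on *Clk1* differed by 0.12 (95% interval -0.16 to 0.41, edgeR adjusted p = 0.806). Leaving out *Myc* KO 2, *Myc* KO 3 or *Myc* control 2 raised the adjusted p of *Clk1* in the *Myc* cohort to 0.0519, 0.0728 and 0.0689.

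In the core snRNP proteins, 27 of 36 genes had a lower value in *Myc* KO kidneys (median log2 fold change -0.16), 8 had an unadjusted p under 0.05, all lower, and 0 passed edgeR's test. Over both directions 21.9% of all genes had such a p, and 1679 of the 14936 genes tested had it with a lower value. *Snrpd1*, a protein of the Sm ring named here after its values were seen, had 26.8 to 32.5 CPM in *Myc* control and 19.7 to 25.7 CPM in *Myc* KO kidneys, but 20.7 to 24.0 CPM in *Cxcl12* control and 25.5 to 32.3 CPM in *Cxcl12* KO kidneys. The groups did not overlap in either cohort and lay in opposite order. Its difference between the effects was -0.70 (edgeR adjusted p = 0.0599, SE 0.14). Of 32 other splicing regulators and 14 genes of the exon junction complex and nonsense-mediated decay, 0 passed in *Myc* KO kidneys, with 7 and 2 at an unadjusted p under 0.05, shares near or below the same 21.9%. In *Cxcl12* KO kidneys the median log2 fold changes were 0.02 for the core snRNP proteins, 0.09 for the kinases and importer, 0.09 for the other regulators and 0.11 for the exon junction and decay genes, with 2, 1, 6 and 0 genes at an unadjusted p under 0.05, against 13% of all genes. DESeq2 called 13 genes over all 5 lists in the *Myc* cohort and limma-voom 5, against 6 by edgeR, and 0 were called by any of these tools in the *Cxcl12* cohort.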

How the data were processed

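Whole kidneys of 18 mice were compared within 2 cohorts. Reads had been trimmed with Trimmomatic 0.32 and aligned to GRCm38 with STAR 2.4.0, per the submitters' processing notes. The files deposited by the authors hold raw counts of reads on each gene, of which the unstranded column was used, which leaves out reads on more than 1 gene or place. Symbols, positions and exon lengths came from GENCODE vM21. Genes were filtered with filterByExpr, scaled by TMM and tested with edgeR 4.0.16 (quasi-likelihood, R 4.3.3), adjusted over all genes. The standard error is the log2 fold change divided by the square root of F. The steps were tested on simulated data. Alternatives used DESeq2 1.42.0 and limma 3.58.1, and copies were searched with BLAST 2.17.0. CPM are TMM-scaled, and centred values had a prior count of 2.

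Named were the members that passed, the 5 smallest p-values per cohort, the extremes of each class in the *Myc* cohort, the 5 highest and 3 lowest levels per length, members the filter removed, other splicing genes that passed, and both targets. The E-box members and genes given as ranges or extremes were added after their values were seen. Members and lists were chosen with earlier results of these data known. Each of the 33 pairs of kidneys within a group differed beyond sampling noise.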

Additional observations from a re-analysis of the deposited data

Results flagged for a closer look

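In 81 groups of 5 kidneys, the highest and lowest value of each named gene was compared with its nearest neighbour, and 2 kidneys stood far from the others of their group. Chance flags about 1 in 20 such groups. *Hnrnpab* was at 378 CPM in *Myc* control 5, with the nearest other control at 352 and the lowest at 344 CPM. *Gemin5* was at 41.8 CPM in *Myc* control 1, with the nearest at 39.3 and the lowest at 38.3 CPM. Without these kidneys the log2 fold changes were -0.28 for *Hnrnpab* (edgeR adjusted p = 0.0879) and -0.32 for *Gemin5*.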

How the results depend on the processing

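The log2 fold changes moved less than the calls. Of the 47 members, 1 passed in *Myc* KO kidneys, and the count was 3 by DESeq2 (*Hnrnpab*, *Hnrnph1*, *Sf3b6*), 4 with the split by unmapped reads as a covariate (those and *Sf3b5*), and 0 with no filter on low counts, with the sum of the strand columns, with a replicate block or without the kidneys with under 5% unmapped reads, which leaves 3 against 3. Leaving out 1 kidney gave 0 to 1. Over all genes, 246 passed, against 1139 by DESeq2, 954 with the covariate, 18 with the block, 8 without the kidneys with under 5% unmapped reads, and 21 (without *Myc* KO 2) to 877 (without *Myc* control 3) on leaving out 1 kidney. For the difference between the cohorts, 0 members passed, 2 by DESeq2 and 1 with the covariate, and over all genes 11 passed, against 314 and 133. In *Cxcl12* KO kidneys 0 members passed under every alternative run, while over all genes 0 passed by edgeR, 355 by DESeq2, 214 with no filter, 123 with the covariate and 80 without the kidneys with under 5% unmapped reads. Of the other splicing genes in *Myc* KO kidneys, 6 passed, against 13 by DESeq2, 13 with the covariate, 0 with the block, 0 without the kidneys with under 5% unmapped reads, and 1 to 8 on leaving out 1 kidney (1 without *Myc* KO 2, *Myc* KO 3 or *Myc* control 2). The snRNP assembly genes gave 5, 0 with the block, 0 without those kidneys, and 1 to 5 on leaving out 1 kidney. *Cxcl12* itself passed in *Cxcl12* KO kidneys by DESeq2 (-0.73, adjusted p = 0.00171) and edgeR with no filter (-0.73, adjusted p = 0.011). The cause of these changes was not tested.

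Kidneys with the same replicate number did not deviate together in most pairs. Their deviations correlated at -0.16 to 0.38 in the *Myc* and -0.03 to 0.14 in the *Cxcl12* cohort, over 0.1 in 2 of 5 and 1 of 3 pairs. Pairs with different numbers were over 0.1 in 8 of 20 and 1 of 12. The study's methods describe the mice as littermates but name no pairs, so whether the replicate block matches a pairing is not known.

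Of 50 fold changes of single genes that were followed, 13 turned sign in some alternative. In the *Cxcl12* cohort, with the covariate and without the kidneys with under 5% unmapped reads, *Hnrnpa1* had -0.11 and -0.11, *Hnrnpa2b1* -0.042 and -0.048, *Hnrnpr* -0.058 and -0.065, *Prmt5* 0.016 and 0.0090, *Sf3b5* 0.087 and 0.081, and *U2af2* 0.061 and 0.055. With the block, *Hnrnpa0* had -0.10, *Hnrnpab* -0.019 and *Srrm2* -0.0032, and with upper quartile scaling *Hnrnpa0* had -0.012. In the *Myc* cohort *Srsf2* had 0.0081 without the kidneys with under 5% unmapped reads. On leaving out 1 kidney, the *Cxcl12* cohort gave -0.0067 to 0.093 for *Gemin5*, -0.14 to 0.053 for *Gemin6*, -0.058 to 0.074 for *Hnrnpa0*, -0.017 to 0.27 for *Hnrnpa1*, -0.0039 to 0.12 for *Hnrnpr*, -0.039 to 0.050 for *Prmt5*, -0.13 to 0.014 for *Sf3b5*, -0.0091 to 0.078 for *Srsf2* and -0.12 to 0.0018 for *U2af2*, and the *Myc* cohort gave -0.045 to 0.022 for *Srsf2*.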
